A study of Mus musculus with 15 samples.

Results

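The 8 genes described here encode molecules with which blood leukocytes are caught at a vessel wall and cross it: the selectins Sele and Selp, the selectin ligand Selplg, the immunoglobulin-type receptors Vcam1, Icam1 and Icam2, and the junctional adhesion molecules F11r and Jam2. They were taken by gene symbol from the array table, and all 8 were found, with 9 probe sets, among 22180 named genes. Carotid arteries of female C57Bl/6J mice aged 21 to 22 weeks were compared in 4 groups, 5 days after the left common carotid artery was tied off: wildtype arteries that were not ligated (n = 4 arrays) or were (n = 4), and arteries of Has3 deficient mice, again not ligated (n = 4) or ligated (n = 3). Tying the artery is a model of neointimal hyperplasia, the thickening of the inner vessel wall, and Has3 makes hyaluronan, a sugar polymer of the matrix and of the cell coat. How Has3 was inactivated, whether arteries were pooled, and whether the non-ligated arteries came from the mice with the ligated ones are not stated in the labels. p-values therefore measure the spread between these arrays, which may be technical.

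Leukocytes leave the blood in steps. Selectins on activated endothelium, and P-selectin also on platelets, bind sugar-bearing ligands such as PSGL-1 and let the cells roll; chemokines then switch on leukocyte integrins, which hold on to ICAM and VCAM molecules; and the cells finally pass between endothelial cells, where junctional adhesion molecules and PECAM-1 sit. Endothelial E-selectin, VCAM-1 and ICAM-1 are known to be induced by inflammatory cytokines through NF-kB, whereas ICAM-2 and the junctional molecules are made by resting endothelium.

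The array values are on a log2 scale on which every probe set has a median of 0 across the 15 arrays. Levels cannot be compared between genes on this scale, and whether the arrays carry the markers of a carotid artery could not be checked by level; differences between arrays are kept. Array medians lay within 0.0167 of 0. The Has3 probe set did not check the genotype labels: Has3 deficient minus wildtype was 0.09 ± 0.14 (± standard error) in non-ligated and -0.20 ± 0.16 in ligated arteries, and neither passed. Some non-ligated arrays stood apart in neuronal genes, with a mean over 9 neuron and ganglion markers of 2.48 in wildtype array 2 and of 1.31, 1.84 and 4.32 in Has3 deficient arrays 1, 4 and 3, against -0.25 to 0.45 in the other 11. Results that move with these arrays are given with and without them.

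In wildtype arteries 4 of the 8 genes rose with ligation (Selplg, Sele, Vcam1 and Icam1), 2 fell (Jam2 and Icam2) and 2 did not pass (Selp and F11r). To pass, a gene needed a limma p under 0.05 once adjusted (Benjamini-Hochberg) across the whole array; 27.8% of all genes passed, 13.2% as higher and 14.6% as lower. The arrays of the groups did not overlap for these 6 genes, as for 30% of all genes (14% higher and 16% lower). In Has3 deficient arteries the same 4 genes rose, Jam2 fell, and Icam2, Selp and F11r did not pass, where 18.3% of all genes passed, 10.2% as higher and 8.08% as lower. The arrays did not overlap for the 5 genes that passed, as for 26.3% of all genes (13% higher and 13.4% lower). Ligation changed the 8 genes by a median of 0.55 in wildtype arteries and 0.66 in Has3 deficient ones, against 0.01 and -0.03 over all genes. Without the 4 arrays high in neuronal genes the wildtype count was 4 higher and 2 lower again. Of all genes 6229 then passed in wildtype, against 6173 with all arrays. The Has3 deficient comparison had 1 non-ligated array left, whose spread was taken from the other groups, so only changes are given. Of the 5 genes that had passed there, Selplg changed by 3.12, Sele by 1.29, Jam2 by -0.55, Vcam1 by 0.50 and Icam1 by 0.49.

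**Figure D1:**
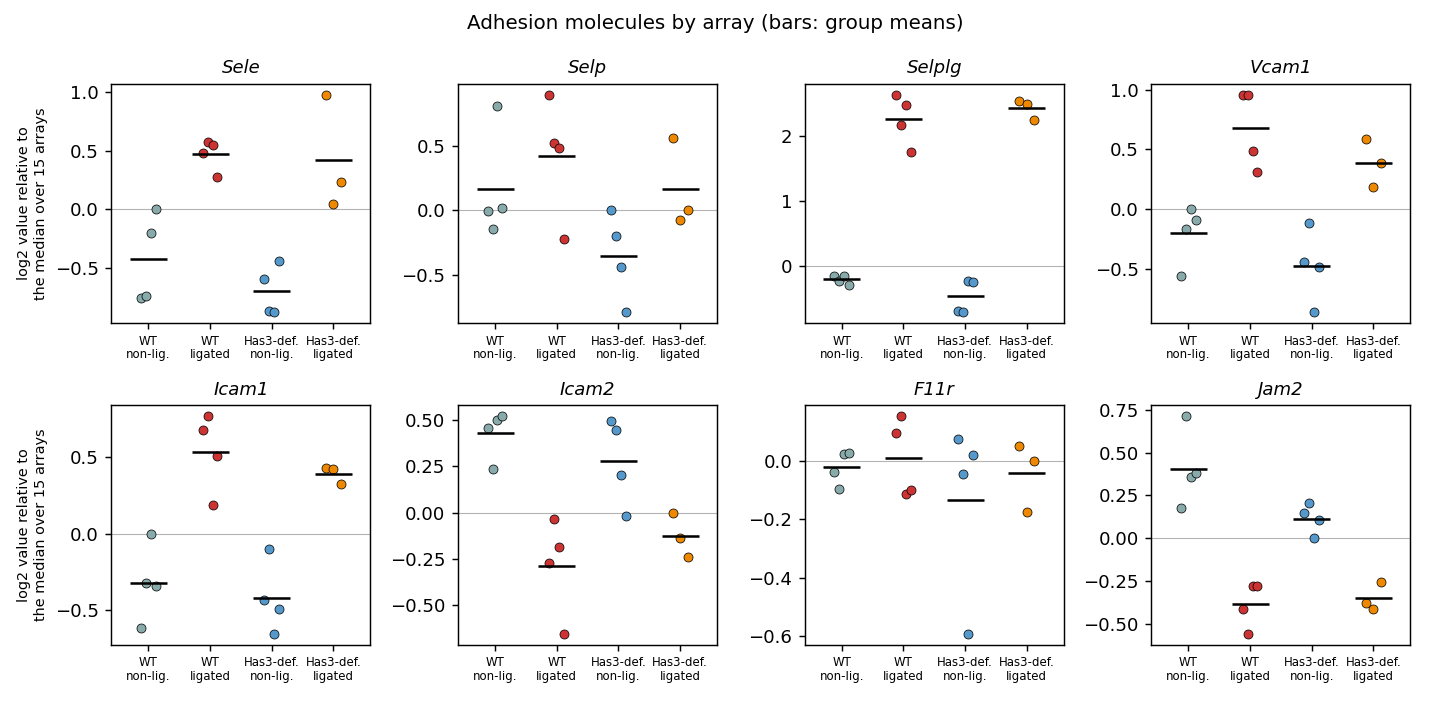
Log2 values relative to the probe set median (vertical axis) of the 8 genes in each of the 15 arrays, by group; points are arrays and bars group means. Selplg stands at 1.74 to 2.63 in all ligated arrays and below 0 in all others, while F11r stays between -0.18 and 0.15 in every array but one (-0.59).

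Only 4 members had an entry in the RefSeq promoter table (GRCm38.p6). Of these, Icam1 and Sele rose with ligation and Selp and F11r did not pass. Their promoter sequences are shown. Each is the 250 bases before the annotated start, 5′ to 3′ on the strand of the gene, which is the plus strand for all 4: chr9:21015690-21015939 for Icam1, chr1:164047984-164048233 for Sele, chr1:164115014-164115263 for Selp and chr1:171437311-171437560 for F11r. For Sele this start lies inside the annotated span of the gene. Capitals mark matches, on either strand, to a kB-like motif (GGNNNTTCC), an AP-1 motif (TGANTCA) or TATAAA; no matches overlapped, except that 1 stretch in Icam1 matches the kB-like motif on both strands.
Icam1: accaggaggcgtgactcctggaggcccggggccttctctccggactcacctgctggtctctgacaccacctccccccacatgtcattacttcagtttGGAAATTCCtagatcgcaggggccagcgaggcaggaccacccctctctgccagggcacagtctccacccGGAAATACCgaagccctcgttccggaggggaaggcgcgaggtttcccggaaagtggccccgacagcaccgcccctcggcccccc
Sele: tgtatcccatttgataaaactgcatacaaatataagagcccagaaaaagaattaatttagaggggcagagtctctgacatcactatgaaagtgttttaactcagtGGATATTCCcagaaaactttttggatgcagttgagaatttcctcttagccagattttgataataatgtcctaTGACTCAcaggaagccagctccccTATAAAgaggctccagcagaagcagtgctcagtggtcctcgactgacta
Selp: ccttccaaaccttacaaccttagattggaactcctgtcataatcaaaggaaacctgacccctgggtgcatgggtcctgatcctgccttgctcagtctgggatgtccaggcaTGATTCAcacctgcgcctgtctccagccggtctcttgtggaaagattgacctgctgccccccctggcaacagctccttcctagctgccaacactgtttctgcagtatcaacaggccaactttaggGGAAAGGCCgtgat
F11r: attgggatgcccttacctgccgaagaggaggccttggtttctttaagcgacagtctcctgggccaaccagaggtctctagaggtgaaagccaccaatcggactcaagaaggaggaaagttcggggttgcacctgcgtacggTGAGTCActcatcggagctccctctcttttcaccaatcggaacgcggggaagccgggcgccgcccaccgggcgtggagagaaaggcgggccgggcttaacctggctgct
Icam1 held 2 kB-like matches, 153 to 145 and 84 to 76 bases before the start. Sele held 1 kB-like match 145 to 137 bases before the start, 1 AP-1 match and 1 TATAAA. Selp held 1 kB-like match 14 to 6 bases before the start and 1 AP-1 match, and F11r 1 AP-1 match with no kB-like one. Of 32851 promoter windows of this length 15.7% held the kB-like motif, 6.75% the AP-1 motif and 12.4% TATAAA. These matches describe letters in the window and do not show that a factor was bound.

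Sele encodes E-selectin, an endothelial receptor that is made on cytokine stimulation and slows rolling leukocytes; it lies on chromosome 1 (GRCm38.p6, chr1:164039614-164058487). Its values were -0.76, -0.74, -0.21 and 0 in wildtype non-ligated arteries and 0.48, 0.58, 0.54 and 0.28 in ligated ones. In Has3 deficient mice they were -0.60, -0.87, -0.88 and -0.44 without ligation and 0.98, 0.04 and 0.23 with it. All ligated arrays lay above all non-ligated ones in both genotypes, and the ligated Has3 deficient arrays were the most spread, by a standard deviation of 0.49 against 0.13 in wildtype. Sele rose by 0.90 ± 0.21 (1.86-fold, adjusted p = 0.00421, limma) in wildtype and by 1.11 ± 0.22 (2.16-fold, adjusted p = 0.00262) in Has3 deficient arteries.

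Selp encodes P-selectin, which endothelial cells and platelets store in granules and bring to their surface within minutes, so that its RNA need not follow its display. It lies 56776 bases beyond Sele (chr1:164115264-164150026). Its values were -0.01, -0.14, 0.81 and 0.02 in wildtype non-ligated arteries and 0.90, 0.52, 0.48 and -0.22 in ligated ones. In Has3 deficient mice they were 0, -0.20, -0.44 and -0.79 without and 0.56, -0.08 and 0 with ligation. The groups overlapped in both genotypes. In wildtype, non-ligated array 3 was high and ligated array 4 low, and in Has3 deficient mice non-ligated array 1 (0) reached ligated arrays 5 (-0.08) and 6 (0). The change was 0.25 ± 0.26 (adjusted p = 0.560) in wildtype and 0.52 ± 0.28 (adjusted p = 0.246) in Has3 deficient arteries, so Selp did not pass in either. The 95% intervals of the change were -0.30 to 0.80 in wildtype and -0.08 to 1.12 in Has3 deficient arteries. The wildtype interval ended below the change of Sele in wildtype (0.90). The Has3 deficient interval reached, at its upper end, the change of Sele in Has3 deficient arteries (1.11). Without wildtype non-ligated array 3 the wildtype change was 0.46 (adjusted p = 0.206), and without ligated array 4 it was 0.46 (adjusted p = 0.205). Of 6 platelet markers 2 rose in wildtype and 1 in Has3 deficient arteries. Wildtype non-ligated array 3, the highest of the non-ligated arrays for Selp, was also the highest of them in the mean of these markers, at 0.20, while the other non-ligated arrays lay between -0.66 and 0.11 and the ligated ones between 0.25 and 0.59. The part of platelets in the Selp values was not tested.

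Selplg encodes PSGL-1, the main ligand of P-selectin, carried by nearly all leukocytes (chr5:113817798-113832528). Of the 8 genes it changed most. Its values were -0.15, -0.22, -0.16 and -0.29 in wildtype non-ligated and 2.63, 2.15, 2.47 and 1.74 in wildtype ligated arteries. They were -0.68, -0.70, -0.22 and -0.24 in Has3 deficient non-ligated and 2.53, 2.48 and 2.24 in Has3 deficient ligated arteries. The lowest ligated array, at 1.74, stood far above the highest non-ligated one, at -0.15. Selplg rose by 2.45 ± 0.17 (5.47-fold, adjusted p = 1.11e-07) in wildtype and by 2.88 ± 0.18 (7.34-fold, adjusted p = 8.13e-08) in Has3 deficient arteries. Both of its probe sets rose. Probe set 17440768 changed by 2.14 ± 0.18 in wildtype and 2.46 ± 0.20 in Has3 deficient arteries, and probe set 17451437 by 2.76 ± 0.20 and 3.29 ± 0.21.

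Genes that all leukocytes express moved by like amounts. All 8 pan-leukocyte markers rose in both genotypes, with changes of 1.36 to 3.25 (median 2.52) in wildtype and of 1.46 to 3.85 (median 2.84) in Has3 deficient arteries. Among them, chosen after their values were seen, were Ptprc, the CD45 phosphatase, at 2.90 ± 0.23 and 3.33 ± 0.24, and Cd53, a leukocyte tetraspanin, at 3.25 ± 0.29 and 3.85 ± 0.31. The list mean was -0.999 to -0.15 in the 8 non-ligated and 1.79 to 2.28 in the 7 ligated arrays, without overlap. All 11 macrophage markers rose in both genotypes, as did 8 of 11 neutrophil markers. Of the other neutrophil markers 3 did not pass in wildtype, and in Has3 deficient arteries 2 did not pass and 1 fell. In whole arteries, more cells of a type and more RNA per cell cannot be told apart.

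Vcam1 encodes VCAM-1, the endothelial and smooth muscle receptor for the integrin of the Itga4 and Itgb1 chains (chr3:116110020-116129688). Its values were -0.56, -0.17, 0 and -0.09 in wildtype non-ligated and 0.95, 0.96, 0.49 and 0.31 in wildtype ligated arteries. They were -0.44, -0.12, -0.86 and -0.49 in Has3 deficient non-ligated and 0.58, 0.18 and 0.38 in Has3 deficient ligated arteries. Every ligated array was above every non-ligated one. Vcam1 rose by 0.88 ± 0.18 (1.84-fold, adjusted p = 0.00205) in wildtype and by 0.86 ± 0.20 (1.82-fold, adjusted p = 0.00682) in Has3 deficient arteries.

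Icam1 encodes ICAM-1, to which the integrins LFA-1 and Mac-1 of leukocytes bind (chr9:21015940-21028814). Its values were -0.61, -0.32, 0 and -0.34 in wildtype non-ligated and 0.67, 0.76, 0.19 and 0.50 in wildtype ligated arteries. They were -0.43, -0.10, -0.65 and -0.49 in Has3 deficient non-ligated and 0.43, 0.42 and 0.32 in Has3 deficient ligated arteries. The arrays again did not overlap in either genotype, and the Has3 deficient ligated arrays lay close together (standard deviation 0.06). Icam1 rose by 0.85 ± 0.15 (1.80-fold, adjusted p = 0.000474) in wildtype and by 0.81 ± 0.16 (1.75-fold, adjusted p = 0.00224) in Has3 deficient arteries. In the Has3 deficient comparison Vcam1 and Icam1 still passed when any 1 array was left out. Their changes were then 0.73 to 0.98 and 0.73 to 0.91. Leaving out all non-ligated arrays high in neuronal genes kept only array 2, and the changes of 0.50 and 0.49 did not pass. That fit cannot tell the loss of those arrays from the loss of replicates. Array 2 had the highest Vcam1 and Icam1 values of its group, and array 3, the highest in neuronal genes, the lowest. The part of the neuronal genes in these values was not tested.

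Icam2 encodes ICAM-2, a receptor for LFA-1 that resting endothelium and platelets carry (chr11:106377656-106388139). Its values were 0.46, 0.24, 0.50 and 0.52 in wildtype non-ligated and -0.27, -0.04, -0.19 and -0.66 in wildtype ligated arteries. They were 0.49, 0.45, 0.20 and -0.02 in Has3 deficient non-ligated and 0, -0.14 and -0.24 in Has3 deficient ligated arteries. The wildtype groups were apart, and in Has3 deficient arteries non-ligated array 4 reached into the ligated range. That array had the highest mean of the fat markers (1.67), whose part in the Icam2 values was not tested. Icam2 fell by 0.72 ± 0.13 in wildtype (to 0.609 of the non-ligated value, adjusted p = 0.000953). In Has3 deficient arteries the change was -0.41 ± 0.14 (adjusted p = 0.0693), which did not pass; without non-ligated array 4 it was -0.51 and passed (adjusted p = 0.0226). The difference between the genotypes' responses was 0.31 ± 0.20 (95% interval -0.11 to 0.73, adjusted p = 0.718) and did not pass either.

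Jam2 encodes JAM-B, a molecule of endothelial junctions (chr16:84774123-84826380). Its values were 0.18, 0.71, 0.36 and 0.38 in wildtype non-ligated and -0.42, -0.56, -0.28 and -0.28 in wildtype ligated arteries. They were 0.15, 0.20, 0 and 0.10 in Has3 deficient non-ligated and -0.38, -0.41 and -0.25 in Has3 deficient ligated arteries. All ligated arrays were below all non-ligated ones. Jam2 fell by 0.79 ± 0.10 (to 0.578 of the non-ligated value, adjusted p = 3.46e-05) in wildtype and by 0.46 ± 0.11 (to 0.725, adjusted p = 0.00747) in Has3 deficient arteries.

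F11r encodes JAM-A, found at endothelial and epithelial junctions and on platelets and leukocytes (chr1:171437561-171464593). Its values were -0.04, -0.09, 0.02 and 0.03 in wildtype non-ligated and 0.10, 0.15, -0.11 and -0.10 in wildtype ligated arteries. They were 0.08, -0.04, -0.59 and 0.02 in Has3 deficient non-ligated and 0.05, -0.18 and 0 in Has3 deficient ligated arteries. The groups overlapped, and 1 array, Has3 deficient non-ligated array 3, was far below the rest. F11r changed by 0.03 ± 0.12 (95% interval -0.24 to 0.29, adjusted p = 0.913) in wildtype and by 0.09 ± 0.13 (-0.19 to 0.38, adjusted p = 0.711) in Has3 deficient arteries, and it did not pass in either. Without the low array the Has3 deficient change was -0.06.

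**Figure D2:**
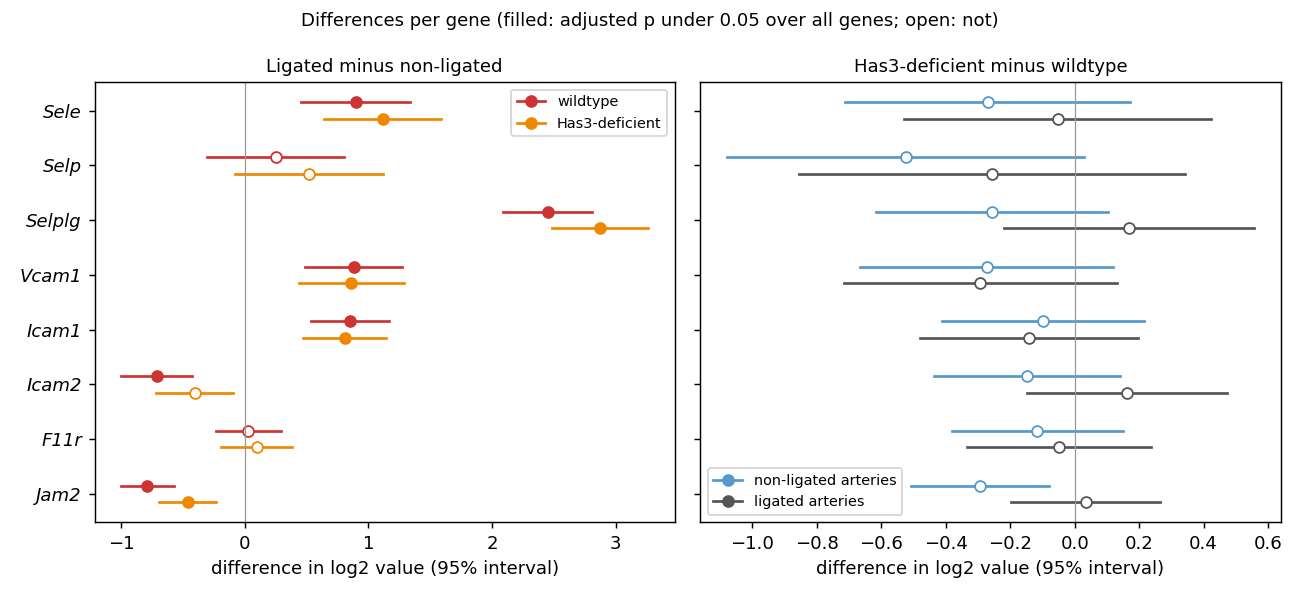
Differences in log2 value (horizontal axis) with 95% intervals from limma, for ligation in each genotype (left) and for genotype in each artery state (right); filled points passed. Selplg lies far to the right in both genotypes, Jam2 and Icam2 lie left of 0, and no point of the genotype panel is filled.

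Markers of endothelium, the layer that carries most of these receptors, went both ways. Of 15 endothelial markers 4 rose and 5 fell in wildtype, and 4 rose and 3 fell in Has3 deficient arteries. Their mean ran from -0.24 to 0.25 in non-ligated and from -0.17 to 0.19 in ligated arrays. Of these, named after their values were seen, Cdh5, the cadherin of endothelial junctions, rose by 0.66 ± 0.14 and 0.72 ± 0.15. Tek, the angiopoietin receptor, fell by 1.45 ± 0.17 and 0.86 ± 0.18, and Nos3, endothelial nitric oxide synthase, by 0.90 ± 0.21 and 0.99 ± 0.22. Contractile smooth muscle markers fell in 10 of 11 in wildtype and in 11 of 11 in Has3 deficient arteries.

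**Figure D3:**
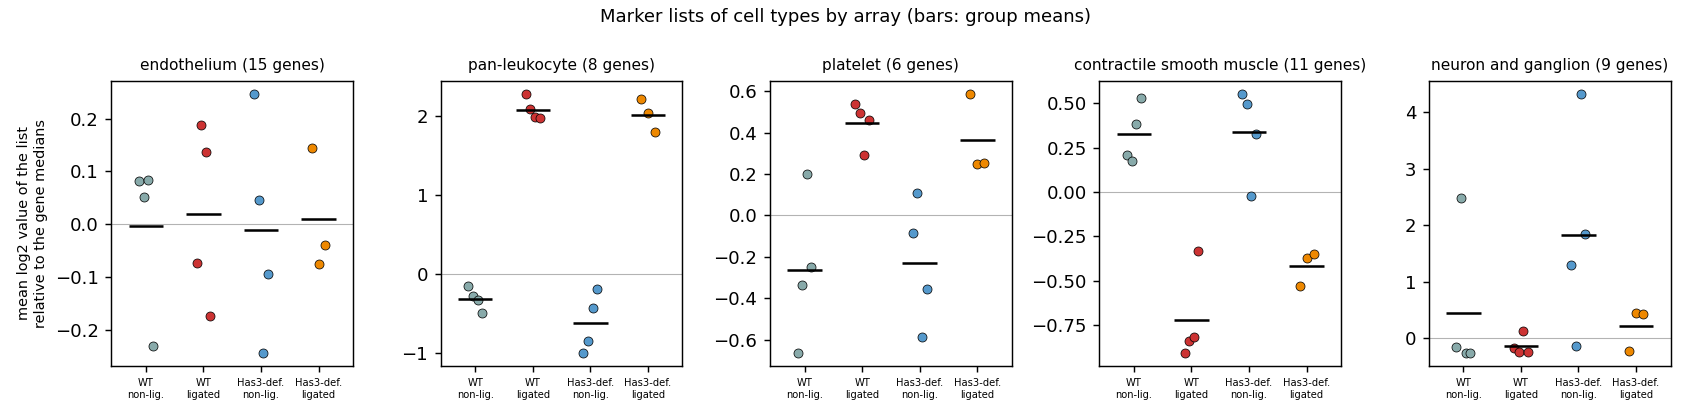
Mean log2 value of 5 marker lists (vertical axis) in each array, by group; points are arrays and bars group means. The endothelial mean overlaps between all groups, the pan-leukocyte mean is separated by ligation, and 4 non-ligated arrays stand above 1 in the neuronal list.

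The other genes of leukocyte capture and passage were taken from 9 lists with 87 measured genes besides the 8. With ligation 43 rose, 24 fell and 20 did not pass in wildtype, and 37 rose, 15 fell and 35 did not pass in Has3 deficient arteries. Their median changes were 0.21 and 0.23. Without the arrays high in neuronal genes 38 rose and 22 fell in wildtype, where 6229 of all genes passed. The Has3 deficient comparison then rests on 1 non-ligated array, and its counts are left out.

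The integrins that bind ICAM and VCAM molecules held some of the largest rises. Of 11 genes 6 rose and 3 fell in wildtype, and 6 rose and 2 fell in Has3 deficient arteries. Itgb2, the shared chain of LFA-1 and Mac-1, rose by 3.73 ± 0.24 and 3.85 ± 0.26, Itgam by 3.62 ± 0.24 and 3.83 ± 0.26, Itgax by 3.42 ± 0.18 and 3.52 ± 0.20 and Itgal by 2.14 ± 0.13 and 2.11 ± 0.14. The chains of the VCAM-1 receptor, singled out after their values were seen, differed: Itga4 rose by 1.05 ± 0.08 and 1.41 ± 0.08, while Itgb1 fell by 0.42 ± 0.09 and 0.35 ± 0.10. Of 9 genes that switch integrins on, 7 rose and 1 fell in wildtype, and 6 rose in Has3 deficient arteries, led by the adaptors Fyb (2.68 ± 0.12 and 2.64 ± 0.13), Fermt3, which is kindlin-3 (1.92 ± 0.10 and 1.98 ± 0.11), and Apbb1ip (1.88 ± 0.07 and 2.05 ± 0.08).

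Among the other selectin ligands the mucin genes did not move one way. In wildtype, Glycam1 (0.79 ± 0.20) and Spn (0.52 ± 0.14) rose and Podxl (-0.68 ± 0.18) and Cd34 (-0.41 ± 0.09) fell. In Has3 deficient arteries Podxl passed (-0.68 ± 0.19), and the values were 0.54 ± 0.22 for Glycam1, 0.35 ± 0.15 for Spn and -0.01 ± 0.10 for Cd34. Of 10 enzymes that build or sulfate selectin ligands 4 rose and 3 fell in wildtype, and 3 rose and 1 fell in Has3 deficient arteries. Tpst2, a tyrosine sulfotransferase, rose by 0.73 ± 0.08 and 0.48 ± 0.09, and B4galt1, a galactosyltransferase, by 0.45 ± 0.06 and 0.73 ± 0.07.

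The other genes in the list of immunoglobulin-type adhesion molecules fell or did not pass. Of these 9 listed genes 4 fell in wildtype and 3 in Has3 deficient arteries, and none rose. Ncam1 fell by 1.38 ± 0.14 and 1.06 ± 0.15, Mcam by 0.87 ± 0.09 and 0.84 ± 0.10, and Pecam1, a molecule of endothelial junctions and leukocytes, by 0.84 ± 0.12 and 0.64 ± 0.13. Of 12 further genes of junctions and transmigration 4 rose and 5 fell in wildtype, and 4 rose and 3 fell in Has3 deficient arteries. Jam3, which encodes JAM-C, a binding partner of JAM-B, fell by 1.07 ± 0.09 and 0.59 ± 0.10. Cdh5 rose by 0.66 ± 0.14 and 0.72 ± 0.15. The largest passing changes of this list in Has3 deficient arteries were rises, of Vsig4 (0.89 ± 0.23) and Pvr (0.73 ± 0.16).

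Of 10 other capture molecules 6 rose and 2 fell in wildtype, and 5 rose and 2 fell in Has3 deficient arteries. Cd44, a hyaluronan receptor that also binds selectins, rose by 2.53 ± 0.13 and 2.63 ± 0.14, Cxcl16, a membrane-bound chemokine, by 1.94 ± 0.10 and 2.02 ± 0.10, and Plvap, a protein of endothelial diaphragms, by 1.10 ± 0.17 and 1.04 ± 0.18. Of 10 membrane anchors and shedding enzymes 4 rose and 4 fell in wildtype, and 4 rose and 3 fell in Has3 deficient arteries. Ezr, which ties ICAM molecules to the actin skeleton, rose by 2.02 ± 0.13 and 1.70 ± 0.14, and Adam8, a membrane protease of leukocytes, by 4.23 ± 0.28 and 4.02 ± 0.31. Of 11 genes of NF-kB and its cytokine inputs 10 rose in wildtype and 9 in Has3 deficient arteries. Il1b, which encodes the cytokine interleukin-1 beta, rose by 5.63 ± 0.65 and 5.41 ± 0.70, Tnf by 3.89 ± 0.21 and 3.51 ± 0.23, and its receptor gene Tnfrsf1b by 2.95 ± 0.14 and 2.71 ± 0.15.

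**Figure D4:**
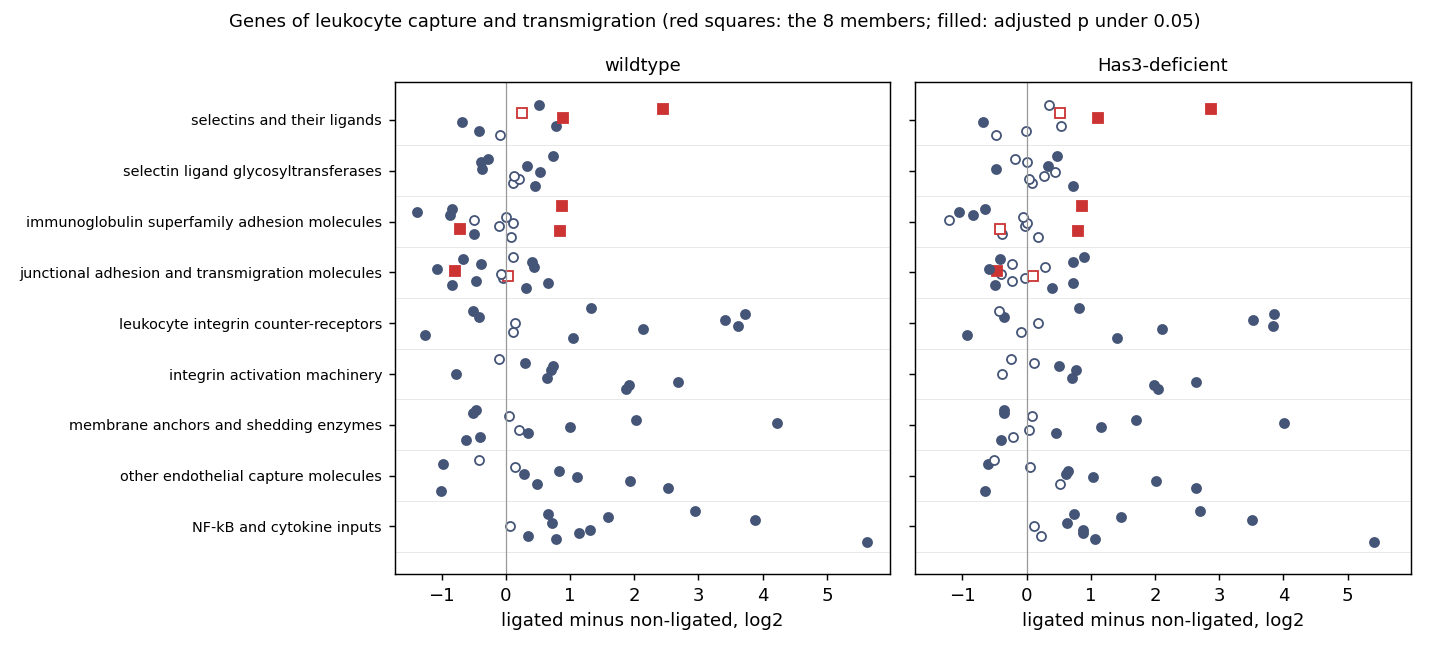
Ligated minus non-ligated log2 change (horizontal axis) of each gene in the 9 lists, in wildtype (left) and Has3 deficient arteries (right); red squares are the 8 genes and filled symbols passed. Integrin, NF-kB and cytokine genes reach farther to the right than Sele, Vcam1 and Icam1.

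Between genotypes none of the 8 genes passed. In non-ligated arteries 0 of 8 passed in limma (1, Jam2, at an unadjusted p under 0.05), where 0.0857% of all genes passed (0.00902% higher and 0.0766% lower). All 8 differences, Has3 deficient minus wildtype, were negative, from -0.52 ± 0.26 for Selp to -0.10 ± 0.15 for Icam1, with a median of -0.26 against 0.01 over all genes. The groups overlapped for all 8 genes; 6.22% of all genes did not overlap (2.4% higher and 3.82% lower). Jam2 differed by -0.29 ± 0.10 (adjusted p = 0.221), which was -0.19 (adjusted p = 0.432) without wildtype array 2, the highest for Jam2. Sele differed by -0.27 ± 0.21 (adjusted p = 0.606). Selp differed by -0.52 with a 95% interval of -1.08 to 0.03, and by -0.31 without wildtype array 3. In this comparison 3 of 4 Has3 deficient arrays and 1 of 4 wildtype arrays were high in neuronal genes. Without those 4 arrays Vcam1 differed by 0.10, Icam1 by 0.22, Jam2 by -0.10, Sele by -0.55, Selplg by -0.50 and Selp by -0.47, with 1 Has3 deficient array left, and 0 of 8 passed. Of the 87 other genes of leukocyte capture 1 passed, B4galt1, at -0.42 ± 0.06 (adjusted p = 0.0385), and without those 4 arrays 0 did.

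In ligated arteries 0 of 8 passed in limma, also 0 at an unadjusted p under 0.05, and 0% of all genes passed. The groups overlapped for all 8 genes, where 6.9% of all genes did not (3.55% higher and 3.35% lower). The differences ran from -0.29 ± 0.20 for Vcam1 (95% interval -0.72 to 0.13) to 0.17 ± 0.18 for Selplg (-0.22 to 0.56). For Sele the difference was -0.05 ± 0.22 and for Icam1 -0.14 ± 0.16 (-0.48 to 0.20). Selp had the widest interval, with a difference of -0.26 ± 0.28 (-0.86 to 0.34).

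The ligation responses of the genotypes did not differ past the threshold for any of the 8 genes (0 of 8 in limma, 1, Jam2, at an unadjusted p under 0.05; 0% of all genes passed). Jam2 had the largest difference for its error, 0.33 ± 0.15, as it fell less in Has3 deficient arteries (95% interval 0.01 to 0.64, adjusted p = 0.606); it was 0.13 without the arrays high in neuronal genes. Selplg differed by 0.42 ± 0.25 (-0.10 to 0.95), Sele by 0.22 ± 0.30, Vcam1 by -0.02 ± 0.27 and Icam1 by -0.04 ± 0.21. The values of the comparisons for ligation and genotype share arrays and are therefore not independent of each other.

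For each gene the 3 genes with the highest Pearson correlation to it over the 15 arrays are named as a description. The arrays fall into ligated and non-ligated ones, so the correlation of deviations from the group means is given beside it. Selplg was most like Spi1 (0.99, deviations 0.76), Ccr1 (0.99, 0.78) and Wfdc17 (0.99, 0.83). Icam1 was most like Myo1e (0.97, 0.86), Il17ra (0.97, 0.93) and Zswim4 (0.96, 0.82), and Vcam1 like Smim3 (0.96, 0.89), Wdr26 (0.95, 0.78) and Osmr (0.95, 0.82). Sele was most like Myc (0.96, 0.84), Emp3 (0.95, 0.76) and Sik3 (0.95, 0.82). Jam2 was most like Ssbp2 (0.98, 0.86), Scaper (0.97, 0.69) and Iqcb1 (0.96, 0.63), and Icam2 like Wdr45 (0.95, 0.81), Car15 (0.92, 0.73) and Zfp827 (0.92, 0.66). The correlations over the 15 arrays were lower for Selp, with Atf7ip (0.88, 0.81), Ece1 (0.86, 0.77) and Uts2r (0.84, 0.92). They were also lower for F11r, with Arl14ep (0.84, 0.92), Chd2 (0.81, 0.80) and Scyl3 (0.81, 0.79). The correlations of deviations were not lower for Selp and F11r. For F11r the part of the low Has3 deficient non-ligated array 3 (-0.59) in them was not tested.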

How the data were processed

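RNA of carotid arteries (100 ng per array) was amplified and biotin-labelled for whole-transcript arrays, per the labels' protocols. The deposited values are log2 values, for 33793 probe sets and 15 arrays. The median of every probe set over the arrays is exactly 0, so levels were removed before deposit. The base of the logarithm was inferred from the value range. The normalization and its software: not given in the sources used here. Probe sets with 1 gene symbol (23521; 1814 had several and 8458 were unlisted) were averaged per gene, giving 22180 genes. The 4 groups were fitted in 1 model with limma 3.58.1 in R 4.3.3 (11 residual and 2.69 prior degrees of freedom), adjusted by Benjamini-Hochberg over all genes and tested on simulated data. The number of arrays limits the precision. Members, lists and tests were chosen with earlier results of these data known. Named genes are the 8 members, up to 4 passing genes with the largest change per pathway list, the 3 genes most like each member (without predicted, small RNA and olfactory receptor genes) and at most 4 genes per marker list; Itga4 and Itgb1 fall outside this rule. Gene positions and promoters came from RefSeq (GRCm38.p6; 4 of 8 members had a promoter entry). Replicate numbers were not used as pairs in the main fit, and whether they pair arteries is not known. Alternatives were array weights, a common median, quantile normalization, 2-group fits, replicate blocks, a robust prior, other probe set choices, a filter on low spread and leaving out each array. Leaving out the arrays high in neuronal genes was added after seeing the data. No array was left out of the main results.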

Additional observations from a re-analysis of the deposited data

Results flagged for a closer look

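Selp in wildtype non-ligated array 3 stood apart from its group: its log2 value was 0.81, while the other 3 arrays lay between -0.14 and 0.02. The gap made up 0.831 of the range of the group, above the 95% critical value of Dixon's test for 4 arrays. It was the 1 such case among 24 sets of 4 arrays looked at, where chance gives about 1 in 20. The same array had the highest platelet marker mean of the non-ligated arrays (0.20) and a neuronal marker mean of -0.25; the part of either in the Selp value was not tested. F11r in Has3 deficient non-ligated array 3 (-0.59) came just under the limit, at 0.822.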

How the results depend on the processing

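All 6 ligation calls in wildtype kept their direction and passed under each of 18 alternatives (20 for Selplg). In Has3 deficient arteries Sele passed in 16 of 16, Selplg in 18 of 18, Jam2 in 15 and Vcam1 and Icam1 in 14 of 16, and Icam2, not called, passed in 3 of 16. No member passed between genotypes or for the difference of responses under any alternative.

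The replicate block ended calls. Over all arrays it also joined same-numbered arrays of both genotypes, which cannot come from 1 mouse. In non-ligated arteries their deviations from the group means correlated by -0.40 to -0.23. In the ligated Has3 deficient group number 3 alone is shared, so that arrays 5 and 6 drop out: 2 members and 1535 genes passed there, against 5 and 4055. In deviations from the group means, same-numbered wildtype arrays correlated by 0.03 to 0.16, and 2 of 4 did so best with their own number. So few arrays cannot decide whether the numbers pair arteries of 1 mouse. The block in wildtype alone gave 6 members and 6098 genes. Without the arrays high in neuronal genes 3 members passed for ligation in Has3 deficient arteries and 163 genes for genotype in non-ligated ones. That last count was 19 and became 43 (quantile), 9 (array weights), 0 (2 groups alone), 0 (replicate block), 7 (probe set of largest spread), 2 (low spread left out) and 0 to 280 with 1 array left out. Genotype in ligated arteries gave 1 gene with array weights and with 2 groups alone. With 1 array left out the counts were 5381 to 5698 genes and 6 members for ligation in wildtype, and 2785 to 4354 genes and 5 to 6 members in Has3 deficient arteries. The cause of these shifts was not tested.

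Sign changes were seen for values that had not passed. For ligation, Selp was at -0.10 in wildtype (quantile), and F11r at -0.020 to 0.069 in wildtype with 1 array left out; in Has3 deficient arteries F11r was at -0.029 (array weights) and at -0.058 to 0.16. For genotype in non-ligated arteries, Vcam1 was at 0.10 and Icam1 at 0.22 without the neuronal arrays, and with 1 array left out Icam1 was at -0.20 to 0.0079 and F11r at -0.19 to 0.037. In ligated arteries the block, which rests there on Has3 deficient array 3 alone, gave 0.031 for Vcam1, 0.47 for Sele and 0.22 for F11r. In the same arteries quantile normalization gave -0.085 for Jam2. With 1 array left out there, Sele was at -0.33 to 0.14, Selplg at -4.0e-05 to 0.29, Jam2 at -0.024 to 0.069 and F11r at -0.10 to 0.017. For the difference of responses, Vcam1 was at 0.16 and Icam1 at 0.060 (quantile), 0.30 and 0.079 (block), and F11r at -0.053 (array weights) and -0.0013 (without the neuronal arrays). With 1 array left out Vcam1 was at -0.15 to 0.10, Icam1 at -0.16 to 0.062, Sele at -0.063 to 0.41 and F11r at -0.087 to 0.14. The table holds no signal over background, so what dim probes limit could not be judged.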

Other observations

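Within an artery state, correlations between pairs of the 8 genes were computed over the 8 non-ligated and the 7 ligated arrays, 56 in all. Arrays of both genotypes were pooled and not centred by genotype, so a difference between genotypes can enter the correlations and their p-values. None passed after adjustment (lowest adjusted p = 0.0917 for Pearson and 0.0625 for Spearman, exact permutation), and 6 had an exact two-sided p under 0.05 before it. The lowest Pearson p was that of Vcam1 and Icam1 in non-ligated arteries, with r = 0.90 (exact permutation p = 0.00164, adjusted p = 0.0917) and rho = 0.93 (exact permutation p = 0.00223, adjusted p = 0.0625). Leaving out the 2 arrays farthest from the median in Vcam1 gave r = 0.85. In ligated arteries the same pair had r = 0.70 (exact permutation p = 0.0772, adjusted p = 0.424) and rho = 0.57 (exact permutation p = 0.200, adjusted p = 0.431), and r = -0.36 without the 2 farthest arrays, so it rests on those arrays. The lowest Spearman p was that of Icam2 and Selp in non-ligated arteries, with rho = 0.95 (exact permutation p = 0.00114, adjusted p = 0.0625) and r = 0.77 (exact permutation p = 0.0278, adjusted p = 0.382). Leaving out the 2 arrays farthest from the median in Icam2 gave r = 0.39.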
